A study of Mus musculus with 22 samples.

Results

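The comparison set H3K4me3 against H3K27ac in undifferentiated G1ER (G1E-ER4) cells, before the addition of β-estradiol (0 h). Regions were the merged union of 4 ChIP-seq peak lists, 2 replicates of each mark, and a mark was called present in a region when both of its lists had a peak there. Of 21798 merged regions, 18273 had at least 1 mark called in this way. Both marks were present in 11062 regions, H3K4me3 only in 2185 and H3K27ac only in 5026, and the other 3525 regions had neither mark in both of its lists. G1ER is a single subclone of the mouse Gata1-null erythroid progenitor line G1E with a transgene, GATA1-ER, in which GATA1 is joined to the hormone-binding part of the estrogen receptor and acts once β-estradiol is added, and all 22 lists of the series came from it. The promoter that drives the fusion is not given in the sources used here. Cells were grown with stem cell factor and erythropoietin, and the later lists (2, 6, 12 and 24 h of β-estradiol, 2 replicates for each mark and time, and 1 CTCF list at 0 h and 1 at 24 h) are used only for comparison. Nothing in the labels says whether replicates came from separate cultures, so the spread between them may be technical. The lists hold positions and a score but no read counts. The depth per library is therefore unknown, and a region without a peak cannot be read as a region without the mark.

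Trimethylation of histone H3 at lysine 4 is laid down by the SET1 and MLL family methyltransferases, which are recruited to CpG islands and to transcribed genes, and it surrounds the transcription start site (TSS) of most active genes. Acetylation of H3 at lysine 27 is made mainly by p300 and CBP. It is found at active promoters and at active enhancers, which usually carry little H3K4me3, and it cannot coexist on the same lysine with the Polycomb mark H3K27me3. In erythroid progenitors, enhancers are often bound by GATA factors, which recognize the letters AGATAA.

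Sequences from each class are shown first, so that the CpG and GATA letters counted later can be seen in named elements. The promoter sequences are the 200 bases upstream of the annotated TSS of Etv6 and Klf1 (both marks), Runx1 and Alas2 (H3K4me3 only) and Gp9 (H3K27ac only), read on the strand of the gene from GRCm38, with every CpG in capitals. The Etv6 window is chr6:134035500-134035699 (plus strand), the Klf1 window chr8:84901728-84901927 (plus), the Runx1 window chr16:92826150-92826349 (minus), the Alas2 window chrX:150547175-150547374 (plus) and the Gp9 window chr6:87777872-87778071 (plus). None of these windows overlapped an annotated exon.
Etv6: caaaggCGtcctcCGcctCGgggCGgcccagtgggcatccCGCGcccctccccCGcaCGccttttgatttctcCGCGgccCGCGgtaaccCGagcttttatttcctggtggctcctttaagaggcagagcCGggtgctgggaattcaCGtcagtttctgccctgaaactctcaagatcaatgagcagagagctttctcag
Klf1: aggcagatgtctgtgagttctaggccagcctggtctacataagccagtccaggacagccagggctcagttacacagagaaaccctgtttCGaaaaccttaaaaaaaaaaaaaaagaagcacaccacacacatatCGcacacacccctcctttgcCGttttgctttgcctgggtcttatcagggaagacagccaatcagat
Runx1: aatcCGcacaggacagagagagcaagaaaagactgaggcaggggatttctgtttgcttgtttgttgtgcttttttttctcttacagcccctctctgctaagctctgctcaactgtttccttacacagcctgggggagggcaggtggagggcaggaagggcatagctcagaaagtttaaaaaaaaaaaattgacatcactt
Alas2: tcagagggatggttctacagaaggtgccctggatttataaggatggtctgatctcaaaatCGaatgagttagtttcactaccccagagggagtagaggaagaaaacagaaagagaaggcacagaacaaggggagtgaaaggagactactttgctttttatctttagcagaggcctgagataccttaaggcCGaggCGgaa
Gp9: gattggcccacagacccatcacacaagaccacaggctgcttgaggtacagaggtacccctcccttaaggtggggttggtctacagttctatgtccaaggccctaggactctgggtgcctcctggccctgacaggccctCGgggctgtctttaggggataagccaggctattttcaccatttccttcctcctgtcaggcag
They hold 15, 3, 1, 3 and 1 CpG dinucleotides, respectively. The next 2 windows have 126 bases each on the plus strand. They come from 2 of the longest regions with H3K27ac in both lists and H3K4me3 in neither. Each is set at the AGATAA match nearest to the midpoint of the region (in capitals, here as its reverse complement TTATCT). The first lies in an intron of Gmpr (chr13:45527984-45528109) and the second between genes, with AI481877 as the nearest gene (chr4:59157614-59157739). Both windows hold the letters by choice. The regions at Klf13, Lpin2, Usp12, Nat3, H2-T24 and Ptma, also among the longest, held no AGATAA match in the 501 bases around the midpoint. Those over Olfr1404 and Tcf3, which hold a TSS, were passed over. The 2 windows therefore cannot show how often such regions hold AGATAA. The Alas2 promoter above, with H3K4me3 only, also holds TTATCT, left in small letters there.
Gmpr intron: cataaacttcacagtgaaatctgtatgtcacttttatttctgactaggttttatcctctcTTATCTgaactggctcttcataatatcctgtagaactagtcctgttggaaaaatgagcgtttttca
AI481877 distal: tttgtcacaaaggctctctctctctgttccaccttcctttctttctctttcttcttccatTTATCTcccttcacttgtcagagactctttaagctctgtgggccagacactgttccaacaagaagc

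The first question was how far the 2 marks shared their regions. Of the 13247 regions with H3K4me3, 83.5% also had H3K27ac (95% Wilson interval 82.9% to 84.1%), and of the 16088 regions with H3K27ac, 68.8% also had H3K4me3 (68.0% to 69.5%). These and the later intervals cover counting error only, and regions are not replicates. The H3K4me3 lists had 14014 and 14452 peaks and the H3K27ac lists 17990 and 17892, so the lists of the marks did not overlap in number. With 2 lists against 2, an exact permutation test cannot go below p = 0.333. Replicates shared 88.6% of H3K4me3 regions and 82.8% of H3K27ac regions. The H3K4me3 lists covered 32.0 ± 1.2 Mb and the H3K27ac lists 44.5 ± 0.778 Mb (mean ± SD, n = 2 each), while the median peak length was alike, 2128 ± 26.2 bp and 2159 ± 38.2 bp (n = 2 each). A protein-coding TSS lay in 63.4% ± 1.27 of H3K4me3 peaks and in 46.5% ± 0.424 of H3K27ac peaks (SD, n = 2 each). Of the H3K4me3-only regions, 1504 had no peak in either H3K27ac list and 681 had a peak in 1 of them. For the H3K27ac-only regions, 4347 had no H3K4me3 peak and 679 had a peak in 1 list.

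The 3 classes lay in different places (GENCODE M21 annotation). Regions with both marks were mostly promoters: 8066 held a protein-coding TSS (72.9%, 72.1% to 73.7%), 1178 lay inside a protein-coding gene and 1818 between genes. Among the H3K4me3-only regions, 897 were promoters (41.1%, 39.0% to 43.1%), 469 lay inside a gene and 819 between genes. H3K27ac-only regions were rarely promoters (175 regions, 3.48%, 3.01% to 4.03%), and 2835 lay inside a gene (56.4%) and 2016 between genes (40.1%). The shares depended on the peaks admitted. Among the peaks above the median score of their list, 95.7% of 6153 regions with both marks, 95.5% of 671 regions with H3K4me3 only and 33.0% of 2201 regions with H3K27ac only were promoters. The order of the H3K27ac-only class below the other classes was the same, while the gap between both marks and H3K4me3 only was gone.

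**Figure D1:**
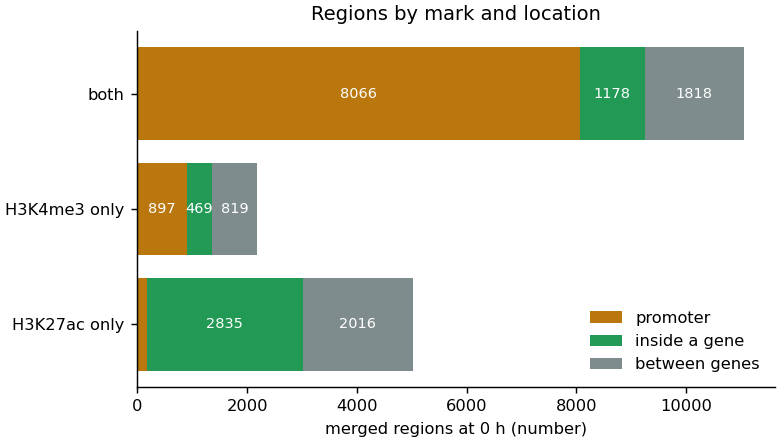
Number of merged regions at 0 h (horizontal axis) with both marks, H3K4me3 only or H3K27ac only, divided by color into promoters (a protein-coding TSS inside the region), regions inside a gene and regions between genes. Promoters made up 8066 of 11062 regions with both marks and 175 of 5026 regions with H3K27ac only.

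A TSS of a noncoding gene, without a protein-coding one, lay in 5.21% of regions with both marks, in 10.7% of H3K4me3-only regions and in 3.76% of H3K27ac-only regions. Of all regions with both marks, 10.7% held TSSs of 2 or more protein-coding genes, against 3.11% of H3K4me3-only and 0.119% of H3K27ac-only regions. These were 1188, 68 and 6 regions, all among the 8066, 897 and 175 promoters of the classes. The shares therefore also follow how many regions of a class were promoters. The median distance of an H3K27ac-only region from the nearest protein-coding TSS was 26778 bp (interquartile range 11306 to 63688 bp).

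At genes with both marks, the marks covered nearly the same stretch around the TSS. Each protein-coding gene was given 1 TSS and a window of 1 kb either side. Both marks were present at 8718 of 21853 genes (39.9%), H3K4me3 only at 902 (4.13%), H3K27ac only at 141 (0.645%) and neither in both of its lists at 12092. Among the peaks above the median score of their list, 729 genes had H3K27ac only. At the genes with both marks, the H3K4me3 peak over the TSS reached 999 ± 22.6 bp upstream and 1605 ± 43.8 bp downstream, as the median over genes (SD over lists, n = 2). H3K27ac reached 1090 ± 25.5 bp upstream and 1478 ± 43.1 bp downstream (n = 2). By the median, H3K27ac thus extended farther upstream and H3K4me3 farther downstream in these lists, with no overlap between the replicates of the marks in either direction. Farther downstream the order was the opposite. At 3000 bp downstream, an H3K27ac peak covered the position at 12.1% and 11.1% of these genes and an H3K4me3 peak at 6.92% and 8.33%. The exact test cannot pass the threshold at this number of lists. The peak was longer on the transcribed side at 79.9% and 80.1% of genes in the H3K4me3 lists and at 71.6% and 71.3% in the H3K27ac lists.

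**Figure D2:**
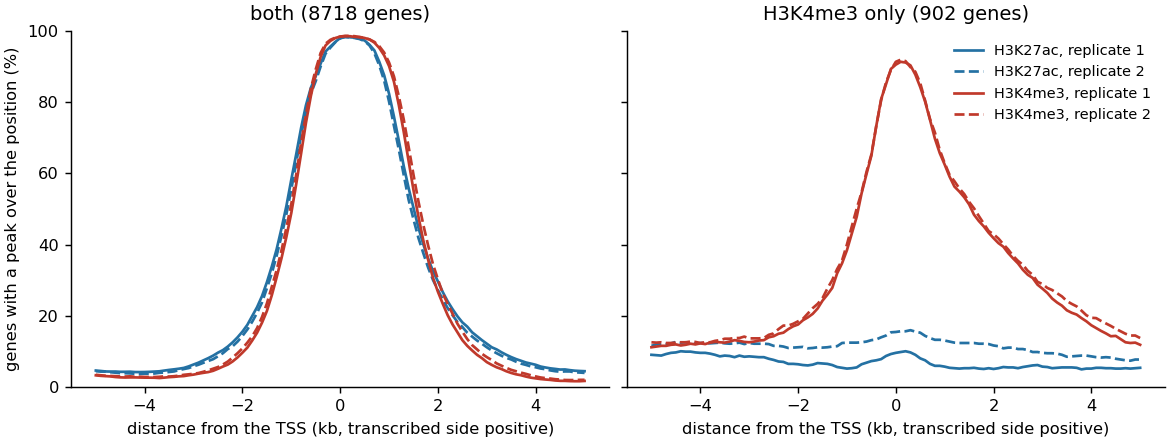
Share of genes (vertical axis, percent) with a peak over each position within 5 kb of the TSS, for genes with both marks (left) and with H3K4me3 only (right), with 1 line for each list at 0 h. At genes with both marks the 4 lines lay between 98.0% and 98.5% at the TSS itself. At genes with H3K4me3 only, from 41.8% to 42.9% of genes were covered by H3K4me3 at 2 kb downstream, against 26.7% to 30.2% of genes with both marks.

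Within the regions with both marks, the way the marks overlapped changed with location. At promoters, the stretch shared by the 2 H3K4me3 lists lay wholly inside that of H3K27ac in 21.5% of regions, the reverse held in 32.8%, and 45.5% overlapped in part. Inside genes, H3K4me3 lay wholly inside H3K27ac in 65.9% of regions (63.1% to 68.5%), and between genes in 50.8% (48.5% to 53.1%). Only 40 of the 11062 regions had the marks side by side without a shared base. At promoters, the median H3K4me3 and H3K27ac covered lengths were both 2646 bp. Inside genes they were 1217 and 2322 bp, and between genes 1279 and 1808 bp.

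The covered length of the marks was compared region by region with limma on log2(covered bp + 200), with 1 estimate of the spread from all 20 histone lists. Over all 18438 regions tested, 39.4% had longer H3K27ac and 17.1% longer H3K4me3 at an adjusted p under 0.05. These shares include the regions with 1 mark, where the choice of regions fixes the direction, so calls were read only in the 11062 regions with both marks, all of which entered the fit. There, H3K27ac was longer in 2453 (22.2%) and H3K4me3 in 1620 (14.6%). At promoters the counts were 1329 and 1458 of 8066, inside genes 520 and 42 of 1178, and between genes 604 and 120 of 1818. The median log2 difference, H3K27ac minus H3K4me3, was -0.02 at promoters, 0.64 inside genes and 0.26 between genes. Among the peaks above the median score of their list the balance turned, with H3K27ac longer in 596 and H3K4me3 longer in 839 of the regions with both marks. The count with longer H3K4me3 was 904 in a fit to the 4 lists at 0 h alone, 873 without the second H3K4me3 list and 912 without the second H3K27ac list. A length of 0 in 1 list and of several kilobases in the other, as found at many regions at later times, is not the normal error for which limma was made.

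Among the called regions with the largest differences, 4 with long H3K27ac lay away from promoters. A region in an intron of Pou2f1, which encodes the octamer-binding factor OCT1 (chr1:165982615-165989174), had 544 and 621 bp of H3K4me3 and 6560 and 5863 bp of H3K27ac. The log2 difference was 3.03 ± 0.11 (SE; limma adjusted p = 1.24e-10). The Tgfa region, 60321 bp from the TSS of this gene for an epidermal growth factor receptor ligand, had 628 and 616 bp of H3K4me3 against 5650 and 7702 bp of H3K27ac (log2 difference 3.05 ± 0.47, limma adjusted p = 1.76e-04). The Zfp652 region had 644 and 549 bp against 5937 and 5504 bp (2.90 ± 0.54 log2 units, limma adjusted p = 8.43e-04). In an intron of Runx1, 20574 bp from the TSS used here (chr16:92797740-92805575), H3K4me3 covered 822 and 884 bp and H3K27ac 7836 and 7084 bp. That difference of 2.86 ± 1.14 log2 units was at the threshold (limma adjusted p = 0.0498) and the call did not hold with 3 of the 4 lists at 0 h, whichever was dropped (limma adjusted p from 0.133 to 0.160).

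The opposite pattern was smaller in size. At the Bcorl1 promoter (chrX:48341064-48346211), which belongs to a gene for a transcriptional corepressor, H3K4me3 covered 4988 and 5148 bp and H3K27ac 852 and 1195 bp, a log2 difference of -2.12 ± 0.20 (limma adjusted p = 1.90e-06). The BC107364 promoter had 3036 and 3211 bp of H3K4me3 and 500 and 1178 bp of H3K27ac (-1.76 ± 0.29 log2 units, limma adjusted p = 2.91e-04). The H3K27ac lists themselves differed at this promoter. A region 12797 bp from Olfr1368, an olfactory receptor gene, and a region 12083 bp from Irgm1, which encodes an interferon-inducible GTPase, had log2 differences of -1.76 ± 0.31 (limma adjusted p = 5.70e-04) and -1.59 ± 0.12 (limma adjusted p = 1.69e-07).

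The share of H3K4me3 promoters that lacked H3K27ac was highest at both ends of the range of H3K4me3 lengths. Among promoters with H3K4me3, the share without H3K27ac in both lists was 72.7% where H3K4me3 covered under 1 kb (144 of 198, 66.1% to 78.5%), 15.3% at 1 to 2 kb (276 of 1799), 2.56% at 2 to 3 kb (94 of 3667), 4.69% at 3 to 4 kb (92 of 1962), 15.7% at 4 to 6 kb (177 of 1128) and 54.5% at 6 kb or longer (114 of 209, 47.8% to 61.2%). Taken list by list, the share without an H3K27ac peak was 66.7% ± 1.43 in the shortest bin, 2.14% ± 0.212 at 2 to 3 kb and 49.3% ± 2.71 in the longest (SD, n = 2 lists at 0 h). The 8 later H3K27ac lists, which took no part in choosing the regions, gave 63.6% to 68.7%, 2.05% to 2.95% and 50.2% to 59.8% in the same bins. For H3K27ac promoters without H3K4me3 only the short end was higher: the share was 8.38% where H3K27ac covered under 1 kb (5.14% to 13.4%) and from 1.48% to 2.30% in the 5 longer bins.

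Long peaks also had low scores. No peak in the 20 histone lists was longer than 9200 bp. In the first H3K4me3 list, the median peak stood at the 73.5 percentile of scores at 2 to 3 kb, at the 54.8 percentile at 4 to 6 kb and at the 36.0 percentile at 6 kb or longer. The first H3K27ac list gave 69.9, 63.5 and 36.8, and the second lists of both marks followed the same course. The lists hold no reads, so whether H3K27ac was present at the long H3K4me3 domains without such a peak was not tested. Accordingly, H3K4me3 only stands here for a called H3K4me3 peak without a replicated H3K27ac peak. Away from promoters both ends were high as well: 870 of the 1891 regions with under 1 kb of H3K4me3 lacked H3K27ac (46.0%), against 61 of 499 at 2 to 3 kb (12.2%), 16 of 52 at 4 to 6 kb (30.8%) and 6 of 11 at 6 kb or longer (54.5%, 28.0% to 78.7%).

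**Figure D3:**
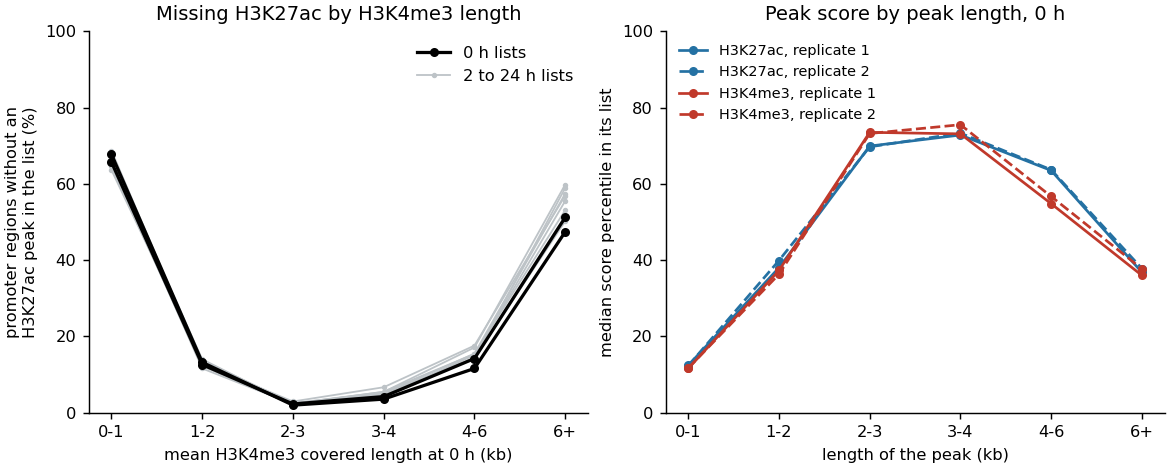
Left, share of promoter regions with H3K4me3 (percent) that had no H3K27ac peak in a given list, by the mean H3K4me3 covered length at 0 h (kb), with the 2 lists at 0 h in black and the 8 later lists in gray. Right, median percentile of the peak score within its own list by peak length (kb) for the 4 lists at 0 h. The left lines fall from a mean of 66.7% to 2.14% and rise to 49.3% at 0 h, and the scores on the right are lowest for the shortest peaks and fall again for the longest.

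The 6 longest promoters with H3K4me3 and no H3K27ac peak were those of Kit, the receptor for stem cell factor (chr5:75573812-75582697), with 8839 and 8827 bp of H3K4me3, Brd2, which encodes a reader of acetylated histones, together with H2-DMa (8937 and 8743 bp), Zbtb7a, which encodes a zinc finger repressor (8725 and 8324 bp), Eif5a with Gps2 (8601 and 10445 bp), Cnppd1 with Retreg2 (9062 and 8994 bp), and a region over an alternative TSS of Pax6 (7939 and 9597 bp), 4372 bp from the TSS used for that gene. The Kit peaks had low scores, at the 8.43 and 8.61 percentile of their lists. None of the 8 later lists had an H3K27ac peak at 4 of these 6 regions, while 1 had it at Brd2 and 2 at Zbtb7a. The H3K4me3 peak itself was missing from 7 of the 8 later lists at Cnppd1 and from 2 at Kit. Of the 4 longest regions of this kind without a protein-coding TSS, 3 are described here and lay in an intron of Bcor (7818 and 7932 bp), 7139 bp from Sec31a (7610 and 7892 bp) and 10041 bp from Nrbf2 (6514 and 6648 bp). The last 2 had H3K27ac in 5 and 7 of the 8 later lists.

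For comparison, the longest H3K4me3 stretches with both marks lay at Tshz1 with Zadh2 (8568 and 8615 bp), Arid1a, a subunit of the SWI/SNF remodeler (8312 and 8841 bp), near Abt1 (8577 and 8519 bp), and at Igf2bp3 (8253 and 8329 bp), Cks2 with Secisbp2 (7733 and 8284 bp) and Tsc22d2 (7592 and 8187 bp). Their H3K27ac was of like length at Tshz1 (8524 and 8514 bp) and unequal between replicates at Igf2bp3 (7045 and 3895 bp) and Tsc22d2 (4273 and 7303 bp). An H3K27ac peak was found in all 8 later lists at Igf2bp3 and Tsc22d2, in 6 near Abt1, in 4 at Tshz1, in 2 at Cks2 and in 1 at Arid1a.

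H3K27ac-only regions were distal elements of middle length, with a median H3K27ac covered length of 1872 bp inside genes and 1644 bp between genes. Their peaks ranked lower than those of regions with both marks: the median percentile in the 2 lists was 29.6 and 28.6, against 68.7 and 68.4. Away from promoters there were 4851, of which 4089 (84.3%) had the TSS used for a protein-coding gene within 100 kb. They were nearest to 2951 genes (13.5% of 21853), and 26 genes had 5 or more. The genes with most of them, chosen after the values were seen, were Cers6, which encodes a ceramide synthase, and Igsf3 (7 regions each), followed by Cpeb4, Herc1, Lonrf1, Stim2 and Ubash3b (6 regions each). Cpeb4 encodes an RNA-binding protein that acts on translation in maturing erythroid cells.

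The longest H3K27ac-only regions without any H3K4me3 peak lay over the olfactory receptor gene Olfr1404 (8373 and 8352 bp of H3K27ac), in introns of Klf13 (7671 and 7924 bp), Lpin2 (7789 and 7752 bp) and Gmpr (7999 and 7437 bp), and over an alternative TSS of Tcf3, which encodes the E proteins E12 and E47 (7780 and 7284 bp). Those outside genes were nearest to AI481877 (8405 and 8255 bp), Usp12 (8345 and 7594 bp), Nat3 (7730 and 7677 bp), H2-T24 (7515 and 7668 bp) and Ptma (7635 and 7136 bp), at distances from 14284 bp to 88404 bp. At 6 of these 10 regions H3K27ac was present in all 8 later lists, whereas the Klf13 and Gmpr regions had it in 1 and 2.

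Gene groups were then read by the state of their promoters, against 39.9% of all genes with both marks, 4.13% with H3K4me3 only and 0.645% with H3K27ac only. Of the 22 hematopoietic transcription factors, 7 had both marks (Lmo2, Klf1, Myb, Spi1, Hhex, Etv6 and Myc), 8 had H3K4me3 only and 7 had neither. Etv6 had 3274 and 3367 bp of H3K4me3 and 3126 and 3370 bp of H3K27ac. Klf1, a master activator of globin and other erythroid genes, had 4011 and 4167 bp of H3K4me3 and 6433 and 5526 bp of H3K27ac. Myb had long peaks of both marks, 6671 and 6717 bp and 8604 and 8628 bp, the H3K27ac peaks at the 9.57 and 6.79 percentile of their lists.

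The 8 factors with H3K4me3 only had no H3K27ac peak in either list. They were the GATA1 cofactors and partners Zfpm1 (6316 and 6574 bp of H3K4me3), Ldb1 (5139 and 5702 bp), Lyl1 (8179 and 8331 bp) and Gfi1b (7743 and 8134 bp), the globin activator Nfe2 (6926 and 7384 bp), and Runx1 (3682 and 4303 bp), Ikzf1 (6795 and 7994 bp) and Meis1 (1787 and 1690 bp). Of these 8, 6 had a mean H3K4me3 length of 4 kb or longer, against 311 of all 902 H3K4me3-only genes (34.5%) and 1221 of all 8718 genes with both marks. Of the 7 factors with both marks, 4 were also 4 kb or longer. Among the 7 with neither mark, Gata1, which the parent line lacks, Gata2, Tal1, Fli1, Erg and Bcl11a had no peak within 1 kb of the TSS used here. Cbfa2t3 had 1 H3K4me3 peak of 8287 bp there, in the second list only. Other TSSs and the rest of these genes have no part in this state. The paper states that undifferentiated G1ER cells express GATA2 at a high level. No peak was longer than 9200 bp in any list, and whether these promoters carry the marks without a called peak was not tested. Of the 22 factors, 11 were the nearest gene of at least 1 H3K27ac-only region within 100 kb (50.0%, against 13.5% of all genes), with 4 such regions at Erg and 3 each at Runx1, Myb and Myc. This was not particular to these factors. The share was 42.9% of mast cell genes and of megakaryocyte markers, 38.9% of H3K27 acetylation genes and 33.3% of hepatocyte markers. Lower shares were found for ribosomal protein genes (9.62%) and developmental regulators (3.33%), and neuron, T and B cell and fibroblast markers had none.

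Of the 27 matched genes of erythroid maturation, 16 had both marks and 10 had H3K4me3 only. Those with both marks included the globin genes Hbb-bs, Hba-a1 and Hba-a2, whose near-identical copies make uniquely mapped reads uncertain, the band 3 anion exchanger Slc4a1 (2126 and 2613 bp of H3K4me3, 2290 and 2491 bp of H3K27ac), the spectrin gene Sptb, and the heme enzyme Urod. H3K4me3 only was found at Alas2, the first enzyme of heme synthesis in red cells, with short peaks (752 and 892 bp). The same state was found at the membrane skeleton genes Epb41 and Ank1, at Fech (3990 and 6557 bp) and at Ermap and Hbb-bt. The limit on uniquely mapped reads holds for Hbb-bt too, so its missing H3K27ac peak cannot set it apart from Hbb-bs. The erythropoietin receptor Epor, the transferrin receptor Tfrc and Rhag had H3K27ac in the second list only, with 5959, 6600 and 7141 bp. Car2 had a single H3K4me3 peak of 8571 bp in the first list. Among the peaks above the median score of their list, 5 of these 27 genes had both marks, 3 had H3K4me3 only and 5 had H3K27ac only. The 22 hematopoietic factors gave 4, 1 and 1, and all 21853 genes gave 6585, 677 and 729. The high share of hematopoietic factors with H3K4me3 only was thus not seen at this setting.

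Of 14 mast cell genes, 2 had both marks (Ms4a2 and Tpsab1), 2 had H3K4me3 only (Kit and Cpa3) and 10 had neither, and none of the 14 had either mark in both of its lists among the peaks above the median score. In the immediate early list of 16 genes, 9 had both marks, among them Fos (3750 and 3443 bp of H3K4me3, 1764 and 1647 bp of H3K27ac) and Jun. Junb, Egr1, Ier2 and Zfp36 had H3K4me3 from 6155 to 8169 bp and no H3K27ac peak. Among 52 ribosomal protein genes 44 had both marks (84.6%), 5 had H3K4me3 only and 3 had neither, Rpl7a and Rps14 among them. Among the peaks above the median score, 6585 of all 21853 genes had both marks and 677 had H3K4me3 only. At that setting 24 of the 52 ribosomal protein genes had both marks, 9 had H3K4me3 only and 16 had neither. Genes of this kind are transcribed in every growing cell. Nevertheless, neither mark had a peak within 1 kb of the TSS used for Rpl7a and Rps14.

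Of the enzymes of the marks themselves, 16 of 18 genes for writers, subunits and erasers of H3K4 methylation had both marks, from the methyltransferases Kmt2a to Kmt2d and Setd1a to the demethylases Kdm1a and Kdm5a to Kdm5c. Setd1b and Dpy30 had no peak within 1 kb of the TSS used here. In the list of H3K27 acetylation, its readers and the Polycomb enzymes of the same lysine, 14 of 18 genes had both marks. Ep300 had 4338 and 4788 bp of H3K4me3 and 5404 and 4422 bp of H3K27ac, and Crebbp 2969 and 3159 bp and 2283 and 2092 bp. Brd2 and Rcor1 had H3K4me3 only, and Kdm6b was among the 2 genes with neither.

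Few developmental regulators outside blood had peaks at the TSS used here: of 30 genes, 1 had both marks and 29 had neither in both of its lists. These 29 include Pax6, whose long H3K4me3 peaks over an alternative TSS are given above, and Lhx2, which had H3K4me3 in 1 list. None of the 6 hepatocyte, 7 T and B cell, 6 macrophage and 6 fibroblast markers had either mark in both of its lists. Of 6 neuron markers, Tubb3 and Slc17a7 had H3K4me3 only, with short peaks of 717 to 878 bp. Of 7 megakaryocyte markers, 2 had H3K27ac only: Itga2b, the platelet integrin subunit CD41 (1547 and 1762 bp), and Gp9 (4333 and 4345 bp).

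**Figure D4:**
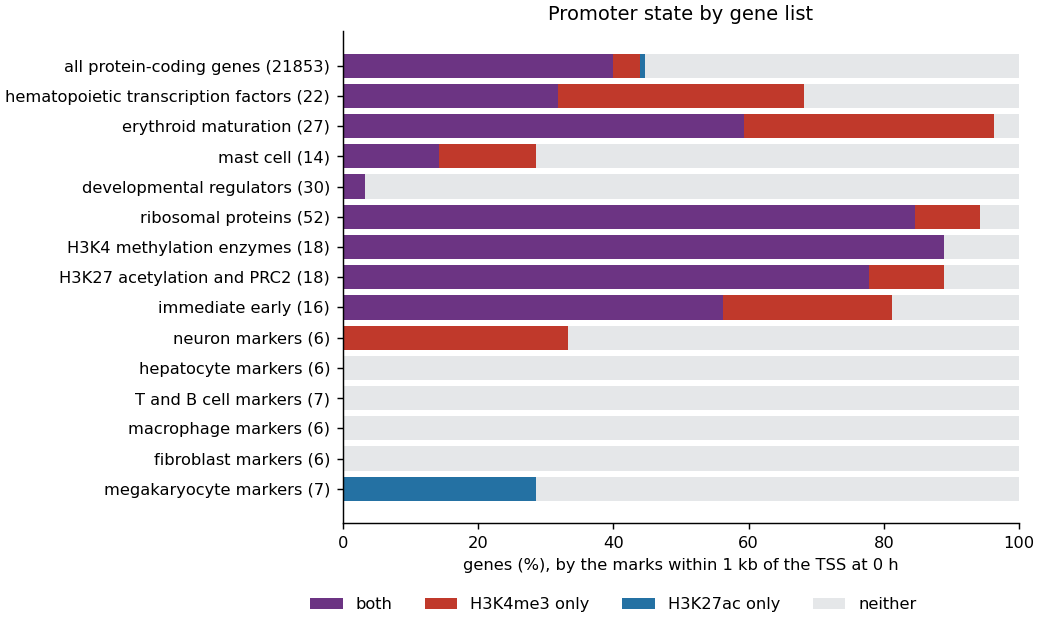
Share of the genes of each list (horizontal axis, percent, list size in parentheses) by the marks found within 1 kb of the TSS at 0 h. Both marks were found at 39.9% of all genes, 31.8% of hematopoietic transcription factors, 59.3% of erythroid maturation genes and 84.6% of ribosomal protein genes, and H3K4me3 only at 36.4% of the hematopoietic factors against 4.13% of all genes.

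Next, the classes set at 0 h were followed in the later lists, which had no part in the choice of regions. Promoters with both marks kept them: 8000 of 8066 had H3K4me3 and 7650 had H3K27ac in all 8 later lists of the mark. Outside promoters this was less uniform, and H3K4me3 was present in all 8 later lists at 774 of 1178 regions inside genes. H3K4me3-only promoters had H3K27ac in none of the 8 later lists in 448 of 897 cases and in all 8 in 30. The H3K27ac-only regions acquired H3K4me3 rarely: 4251 of 5026 (84.6%) had it in none of the 8 later lists.

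In regions with both marks, the share with H3K4me3 was 97.8% ± 1.08 after 2 h, 97.0% ± 0.205 after 6 h, 96.0% ± 0.217 after 12 h and 95.2% ± 0.447 by the end of the course (SD, n = 2). This share fell with time, with Spearman's rho of -0.927 over 8 lists (two-sided exact permutation p = 0.00317, 0.0190 after Benjamini-Hochberg adjustment over 6 trends) and Pearson's r of -0.894 (exact p = 0.00119). Leaving out both lists of the last time point gave rho = -0.837, which missed the threshold (exact p = 0.0667), and r = -0.836 (exact p = 0.0333). In H3K27ac-only regions the share with H3K27ac was 88.2% ± 1.49 after 2 h, 88.6% ± 0.366 after 6 h, 85.6% after 12 h in both lists and 76.0% ± 2.07 by the end of the course (SD, n = 2). It fell as well, with rho of -0.884 (exact p = 0.00635, adjusted 0.0190) and r of -0.948 (exact p = 0.00159). With the last time point left out, rho = -0.728 (exact p = 0.133) and r = -0.776 (exact p = 0.0778) no longer passed the threshold. By rho, neither trend thus passed the threshold without the lists at 24 h. Fewer lists also leave fewer arrangements, so the lost calls cannot show that the trends rested on 24 h. Each of these trends also missed the adjusted threshold when any single list of its mark at 12 or 24 h was left out (adjusted exact p from 0.0635 to 0.0952), and among peaks above the median score of their list (0.110 for each). The lists also differed in size: the 2 h lists of H3K4me3 had 14090 and 13196 peaks and the 24 h lists 12925 and 13070, while H3K27ac had 17722 and 18076 and then 17724 and 17247. The part of list size in the trends was not tested beyond equal numbers of top peaks, under which both trends kept their direction and their call.

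The 4 other trends did not pass the adjusted threshold by rho. H3K27ac in H3K4me3-only regions ranged from 22.4% to 26.4% over the later lists, above the 14.1% and 17.1% in the lists at 0 h, which the rule itself held low (rho 0.439, exact p = 0.300, adjusted 0.300; r 0.310, exact p = 0.446). With equal numbers of top peaks in the later lists this trend passed (rho 0.927, adjusted exact p = 0.00635). H3K4me3 in H3K27ac-only regions ranged from 3.24% to 8.62% (rho -0.537, exact p = 0.190, adjusted 0.229; r -0.562, exact p = 0.128), and rho was 0.342 with equal numbers. H3K27ac in regions with both marks ranged from 96.3% to 98.0% (rho -0.638, exact p = 0.101, adjusted 0.151; r -0.891, exact p = 0.0107, adjusted 0.0214), so that it passed by r. H3K4me3 in H3K4me3-only regions ranged from 80.6% to 90.6% (rho -0.781, exact p = 0.0349, adjusted 0.0698; r -0.694, exact p = 0.0556), and rho was 0.488 with equal numbers. With the last time point left out, r for these 4 was 0.511, -0.583, -0.297 and -0.442, and none passed the threshold.

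**Figure D5:**
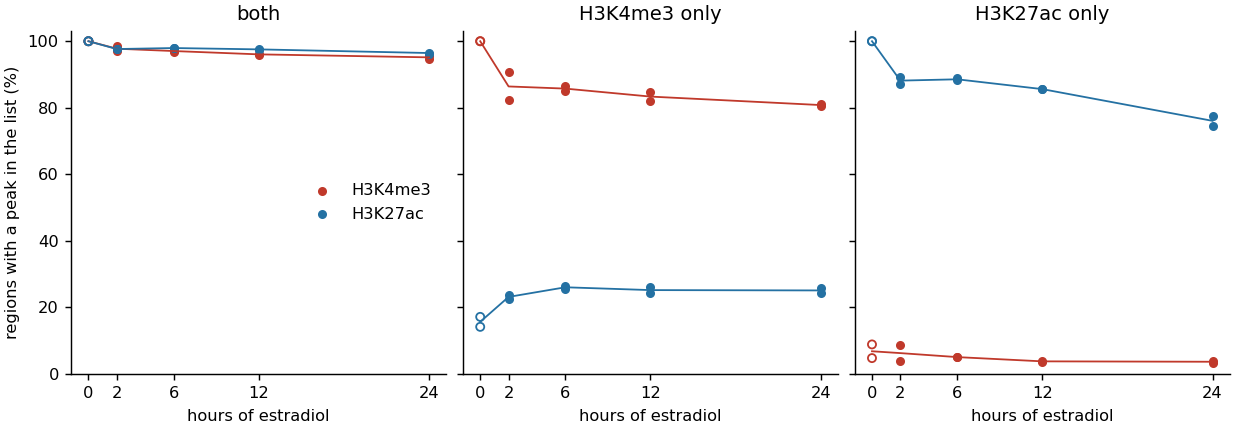
Share of the regions of each class (percent) with a peak in each list against hours of β-estradiol, with H3K4me3 in red and H3K27ac in blue, 1 point for each list, open points for the lists at 0 h and lines through the means. Regions with both marks stayed between 94.8% and 98.5% after 0 h, and the H3K27ac share of the H3K27ac-only regions went from a mean of 88.2% at 2 h to 76.0% at 24 h.

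The letters of the regions also differed by class, as a description without a test. In the 501 bases around the midpoint of each region, the median ratio of observed to expected CpG was 0.71 at promoters with both marks, 0.561 at H3K4me3-only promoters and 0.216 at H3K27ac-only promoters. Inside genes it was 0.312, 0.364 and 0.195, and between genes 0.374, 0.455 and 0.188. The H3K4me3-only promoters with 1 to 2 kb of H3K4me3 had a median ratio of 0.733, above the 0.667 of promoters with both marks of that length, and those under 1 kb 0.626 against 0.466. At 2 to 3 kb the order was the opposite, 0.476 against 0.743, and at 6 kb or longer the values were 0.431 and 0.437. The midpoint of a region can lie away from the TSS. H3K27ac-only promoters lay a median of 4012 bp from the nearest TSS used (1 per gene), against 0 bp for promoters of both other classes. Most of the H3K27ac-only promoters thus held only an alternative TSS. In RefSeq promoters, from 250 bases before the TSS to 50 after, the median ratio was 0.816 at genes with both marks, 0.727 with H3K4me3 only and 0.208 with H3K27ac only. Median GC content there was 61.7%, 62.3% and 51.8%, and 78.3%, 70.3% and 62.4% of the genes were matched. Repeat-masked sequence filled 50% or more of the 501-base window around the midpoint in 20.6% of H3K4me3-only regions between genes, against 16.3% of regions with both marks and 10.2% of H3K27ac-only regions there.

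The GATA letters AGATAA, searched on both strands in the same windows, were found in 41.6% of H3K27ac-only regions, 18.1% of regions with both marks and 20.6% of H3K4me3-only regions, against 26.3% of all merged regions. Away from promoters the shares with both marks were higher, 35.1% inside genes and 30.6% between genes, and remained below the 41.0% and 42.9% of H3K27ac-only regions. The ETS letters CCGGAAGT were found in 6.21% of promoters with both marks, 1.67% of H3K4me3-only promoters and 2.96% of all regions. The KLF letters CCACACCC were found in 4.61%, 4.81% and 5.27% of regions with both marks, H3K4me3 only and H3K27ac only (4.92% of all), and the E-box CACGTG in 11.2%, 10.8% and 7.96% (9.93% of all). The GC content of the windows moved with the classes, with medians of 55.7%, 50.7% and 45.7%, and its part in these shares was not tested.

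CTCF, which binds at insulators and loop anchors, had a peak in 33.6% of regions with both marks, 28.5% of H3K4me3-only regions and 16.4% of H3K27ac-only regions in the list at 0 h (1 list, 33193 peaks). In the list at 24 h, with 41473 peaks, the shares were 41.4%, 32.4% and 20.3%. At promoters the shares at 0 h were 34.2% with both marks and 33.6% with H3K4me3 only (30.5% to 36.7%). These include each other's values within the counting error. The share was 17.7% at H3K27ac-only promoters, most of which held only an alternative TSS.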

How the data were processed

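The data were ChIP-seq peak lists of both histone marks and of CTCF. Histone reads were aligned by the authors to mm10 with Bowtie2 at default settings, and only reads mapped to 1 place were kept. Peaks were called with MACS without its model step, and each list is that of 1 library. The MACS version, control and threshold are not given in the sources used here, nor are the steps for CTCF. The deposited score of each peak ranks peaks within a list (lowest value 50) and was not compared between lists. The deposited positions (start and end, in base pairs) gave all lengths. The labels name a human build for alignment, but the positions are those of mouse. The labels and the methods of the study give different catalogue numbers for the H3K4me3 antibody. In all, 6 peaks outside chromosomes 1 to 19, X and Y were left out.

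Peaks that overlapped or touched were merged. Promoters came from GENCODE M21, and sequences from the RefSeq copy of GRCm38.p6. Covered length was tested with limma 3.58.1 (lmFit, eBayes with trend, R 4.3.3) on log2 of the covered bp plus 200, in the 18438 regions that had peaks in 2 or more lists at 0 h, with Benjamini-Hochberg adjustment over all of them, and the step was tested on simulated data. Trends used two-sided exact permutation tests over 8 lists (2520 arrangements). Intervals are 95% Wilson intervals, and depth is unknown. Scripts ran under Python 3.11.15 (scipy 1.17.1, pandas 2.3.3, numpy 2.4.6; figures with matplotlib 3.10.9). Named regions were the longest stretches with 1 mark and no peak in either list of the other (6 H3K4me3 promoters and 4 others, 5 H3K27ac regions inside and 5 outside genes), the 6 longest H3K4me3 stretches with both marks, and the 4 largest and 4 smallest called log2 differences. Any gene of the lists could be named, and some of the genes and regions so chosen are not reported here. The members, gene lists and tests were chosen with earlier results of these data known. The gene Ahsp was not matched. The alternatives were other peak, overlap, window, pseudocount and fit choices and leaving out each list.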

Additional observations from a re-analysis of the deposited data

How the results depend on the processing

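Of 114 values under other settings, 85 kept their direction and call or stayed near the reported value, as did 77 of 96 with 1 list left out. Among the peaks above the median score of their list, regions with both marks, H3K4me3 only and H3K27ac only numbered 6153, 671 and 2201, with promoter shares of 95.7%, 95.5% and 33.0%. Genes with H3K27ac only numbered 729, and the called length differences 1435 (596 with longer H3K27ac, 839 with longer H3K4me3). With equal numbers of top peaks, 2839 regions had H3K27ac only, and the promoter shares of regions with both marks and H3K27ac only were 76.5% and 4.19%. When 1 list sufficed, the promoter shares were 66.5%, 31.3% and 2.57%, and a TSS within 1 kb of the region gave 5.31% for H3K27ac only. Leaving out regions of 6 kb or longer in either mark, a setting chosen after seeing the data, gave 37.9% for H3K4me3 only. These settings changed the peaks or regions admitted, the rule for a mark or the definition of a promoter, and the source of the moves was not tested. Depth, which the lists do not hold, limits what a missing peak can show.

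The fit to the 4 lists at 0 h called 904 regions with longer H3K4me3. With the replicate block, that fit called 2072 regions, 312 of them with longer H3K4me3. The deviations in covered length of same-numbered lists of the marks had r = 0.01 over 11062 regions. This value cannot show whether same-numbered lists share a culture or batch, which the labels do not give.

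The trend of H3K27ac in H3K4me3-only regions passed the threshold with equal numbers of later peaks (rho 0.927, adjusted exact p = 0.00635) and where neither H3K27ac list had a peak at 0 h (rho 0.834, adjusted exact p = 0.0317), and that of H3K27ac in regions with both marks with Pearson's r (-0.891, adjusted exact p = 0.0214). Both called trends lost their call among peaks above the median score (rho -0.732 and -0.781, adjusted exact p = 0.110 for each). H3K4me3 in H3K27ac-only regions turned positive among peaks above the median score (0.258) and with equal numbers (0.342), and H3K4me3 in H3K4me3-only regions with equal numbers (0.488); the cause was not tested.

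With 1 list left out, regions with both marks, H3K4me3 only and H3K27ac only ranged from 11300 to 11505, 1827 to 2836 and 4584 to 6544, their promoter shares from 70.2% to 71.9%, 33.6% to 42.0% and 2.89% to 3.42%, and genes from 8726 to 8883, 737 to 984 and 121 to 185. Called lengths ranged from 2907 to 2965, those with longer H3K27ac from 1723 to 2084 and with longer H3K4me3 from 873 (without the second H3K4me3 list, and 912 without the second H3K27ac list) to 1222. Spearman's rho ranged from 0.165 to 0.642 for H3K27ac in H3K4me3-only regions, -0.826 to -0.367 for H3K4me3 in H3K27ac-only regions, -0.806 to -0.463 for H3K27ac and -0.973 to -0.899 for H3K4me3 in regions with both marks, -0.973 to -0.679 for H3K4me3 in H3K4me3-only regions and -0.982 to -0.826 for H3K27ac in H3K27ac-only regions. Both called trends missed the threshold when any single list of the mark at 12 or 24 h was left out (adjusted exact p from 0.0635 to 0.0952), and H3K4me3 in H3K4me3-only regions passed it without the second list at 2 h (-0.973, adjusted exact p = 0.00952).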
